A study of Mus musculus with 15 samples.

Results

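Hprt, Tbp, Rpl13a, Tfrc, Gk and Ldhal6b were 6 of 15 reference genes that the array carried as a custom set, each printed as 20 copies of one probe. They were taken by their probe names from the 59709 distinct probes of the array, and the measure was the processed spot signal of the scanner files. Brain RNA came from APP/PS1 mice at 1, 3, 6 and 9 months of age and from wild-type (WT) mice, all on a C57BL strain background. APP/PS1 mice carry transgenes for mutant amyloid precursor protein and presenilin 1 and are a model of Alzheimer's disease. The labels do not state the promoter that drives the transgenes or whether the WT mice were littermates. The labels list 3 animals per group, 1 male and 2 females, while the design text speaks of males. No age is labelled for the WT mice, so each difference from WT holds genotype and age together. Of the 15 labelled samples, 14 had a scanner file used here. Replicates 2 and 3 at 1, 3 and 6 months were near-identical arrays and were averaged. This left 11 samples, with 2 at each of 1, 3 and 6 months, 3 at 9 months and 2 in WT.

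Reference genes serve to scale one RNA sample against another, and that use assumes that their RNA level per unit of input RNA does not differ between the samples compared. Genes with general cellular functions are usual candidates, because every cell needs their products, but their RNA can still vary with tissue, age and disease. The 6 genes cover nucleotide salvage (Hprt), transcription (Tbp), translation (Rpl13a), iron uptake (Tfrc), glycerol phosphorylation (Gk) and a lactate dehydrogenase family member (Ldhal6b). In whole brain a lower level can mean fewer cells that express the gene or less of its RNA per cell, and these cannot be told apart here.

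Between 68.1% and 82.4% of 59994 spots per array were well above background, and the 75th percentile of signal ran from 384 to 566 intensity units. Arrays were scanned at 356 V (WT and replicates 1 and 2 of the 3 younger ages), 355 V (replicate 3 of these ages) or 354 V (all 9-month arrays). At 9 months scan setting and group cannot be told apart. In the set scanned at 356 V the arrays of each group lay side by side, so position and group cannot be told apart there either. The near-identical pairs had nearly the same scan position, with corners 2.97 to 4.22 scanner units apart, and the residuals of negative-probe copies had correlations of 0.80 to 0.825, where the 88 remaining pairs of arrays reached 0.24. None of 37 marker genes of brain cell types, blood and testis had a probe with a gene name here, so the brain label was not checked against markers. Nothing in the labels says that samples of a group were prepared separately beyond being listed as samples, and p-values measure the spread between these 11 samples.

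The copies of each gene agreed closely within an array. All 280 copies of every one of the 6 genes, over the 14 arrays, were well above background, and none was saturated, so all 6 passed the filter on dim probes. The SD of log2 signal between the copies on an array had a median of 0.0543 for Rpl13a, 0.0596 for Tbp, 0.0624 for Tfrc and 0.064 for Hprt. It was 0.0899 for Gk and 0.233 for Ldhal6b, whose signal was only 48.6 to 80.8 intensity units, against 12.8 to 20.5 for the dimmest spots well above background. The standard error of the mean over copies reached at most 0.022 on the log2 scale for Hprt, Tbp, Rpl13a and Tfrc, 0.035 for Gk and 0.093 for Ldhal6b. Between the arrays of a near-identical pair the means differed by at most 0.0175 for 5 of the genes and by at most 0.0305 for Ldhal6b. Within an array the mean over copies was therefore precise to a few hundredths of a log2 unit, except for Ldhal6b. The near-identical pairs were picked for their likeness and lay at nearly the same scan position. Their agreement shows scanner noise and not the spread between separate arrays.

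In the comparisons with WT, 1 of the 6 genes was called at each of the 3 younger ages, a different one each time, and 0 at 9 months. Levels are log2 of the signal over the 75th percentile of the array, tests are limma over 45901 features, and a call is an adjusted p below 0.05. At 1 month 1 of the 6 genes was called (Hprt), where 9.62% of all features were. At 3 months 1 was called (Gk), against 11.4% of all features. At 6 months 1 was called (Tfrc), against 23.0%. At 9 months limma called 0 of the 6, with 1 at an unadjusted p below 0.05 (Tbp), against 33.1% of all features. With the 4 ages averaged and set against WT, 0 were called, with 1 (Tfrc) at an unadjusted p below 0.05, and the background was 17.1%. With only 6 genes, such counts are too few to set the members apart from the shares over all features. Each of the 3 called genes was lower than in WT. So were 15, 9 and 10 of the 15 reference genes at 1, 3 and 6 months, called or not. All 4 ages were set against the same 2 WT samples, so their differences share the WT error.

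**Figure D1:**
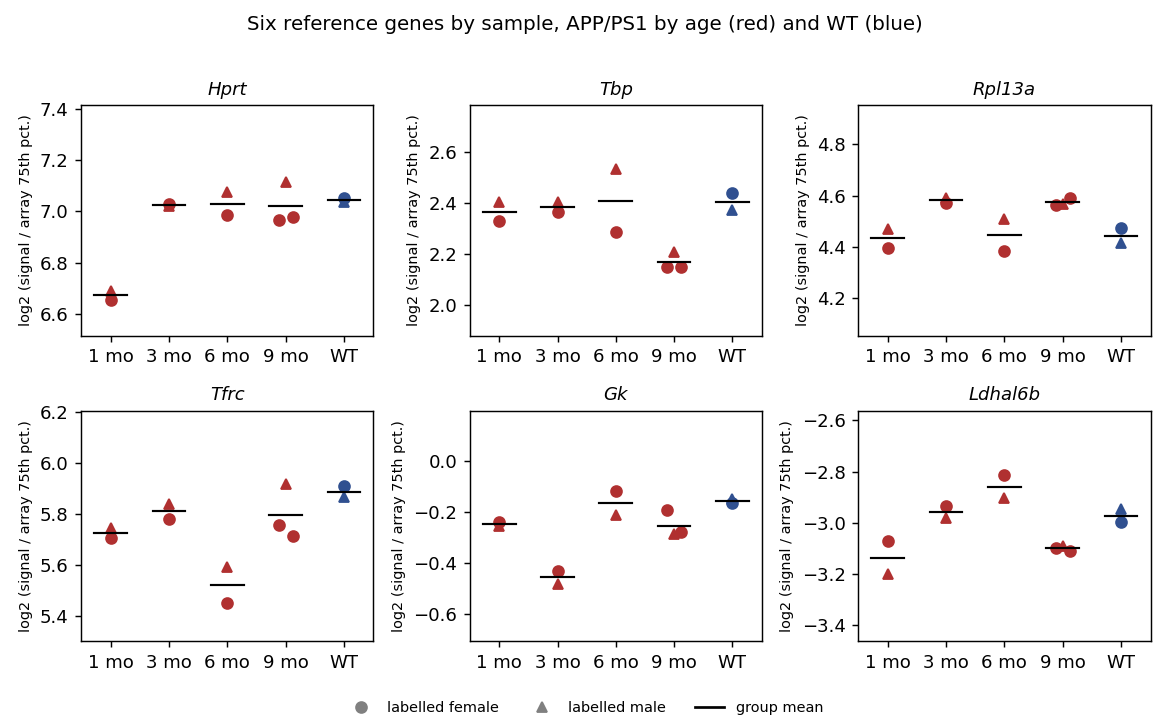
Level of each gene in every sample, as log2 of signal over the array's 75th percentile, for APP/PS1 mice at 1, 3, 6 and 9 months (red) and WT mice (blue). Circles are samples labelled female, triangles those labelled male and lines are group means. All panels span the same height in log2 units. Hprt was lowest at 1 month, Gk at 3 months, Tfrc at 6 months and Tbp at 9 months, while Rpl13a spanned 4.38 to 4.59 over all samples.

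Hprt encodes hypoxanthine phosphoribosyltransferase, the X-linked enzyme that salvages hypoxanthine and guanine for purine nucleotides. Its log2 level was 6.69 and 6.65 at 1 month, 7.02 and 7.03 at 3 months, 7.08 and 6.99 at 6 months, 7.12, 6.97 and 6.98 at 9 months, and 7.04 and 7.05 in WT. Both 1-month samples lay below every other sample, the 3-month samples lay just below both WT samples, and 6 and 9 months overlapped WT. Hprt was lower at 1 month than in WT by 0.37 log2 units (log2 difference -0.37, SE 0.08, 95% interval -0.56 to -0.19, limma adjusted p = 0.0277), a fold of 0.772. At 3, 6 and 9 months the differences from WT were -0.02, -0.01 and -0.02, with 95% intervals that reached no farther than -0.20 and 0.17. The 9-month difference depended on the scale and was called in both directions. It was -0.19 with quantile normalization (limma adjusted p = 0.0424) and 0.32 unscaled (adjusted p = 0.0318). From age to age the level was higher at 3 months than at 1 month by 0.35 (SE 0.08, limma adjusted p = 0.0232). That difference was 0.14 with quantile normalization (adjusted p = 0.189) and 0.07 unscaled (adjusted p = 0.673). Before scaling, the Hprt signal was 48820 to 49720 intensity units on the 1-month arrays and 53010 and 53960 on the WT arrays. The unscaled log2 difference was -0.13 (limma adjusted p = 0.455). The larger scaled difference goes with the 75th percentile, which was 473 to 492 at 1 month and 404 and 407 in WT. The call for 1 month was also lost with quantile normalization (-0.21, limma adjusted p = 0.0959). Relative to the mean of the other 14 reference genes the difference was -0.19 (adjusted p = 0.105). Without either 1-month or either WT sample the call was lost too, at differences of -0.35 to -0.39. The sign of the 1-month difference was the same in all of these.

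Tbp encodes the TATA-binding protein, the subunit of the general factor TFIID that binds core promoters. Its log2 level was 2.40 and 2.33 at 1 month, 2.41 and 2.36 at 3 months, 2.53 and 2.29 at 6 months, 2.21, 2.15 and 2.15 at 9 months, and 2.37 and 2.44 in WT. All 3 samples at 9 months lay below every other sample, while 1, 3 and 6 months overlapped WT. At 9 months the difference from WT was -0.23 (SE 0.09, 95% interval -0.43 to -0.04, limma adjusted p = 0.0712), and it was not called. It was called with quantile normalization (-0.26, limma adjusted p = 0.0238) and without either 6-month sample (adjusted p = 0.0295), whose 2 values gave the widest spread of any group of Tbp (SD 0.17). With normexp background correction the difference was -0.12 (adjusted p = 0.304). Before scaling its sign turned, with a signal of 2260 to 2356 intensity units at 9 months, against 2091 and 2201 in WT (log2 difference 0.11, limma adjusted p = 0.331). At 1, 3 and 6 months the scaled differences from WT were -0.04, -0.02 and 0.00. Between 9 and 6 months the difference was -0.24 (limma adjusted p = 0.0815), not called in the main fit but called in 5 of 25 alternatives. Relative to the mean of the other 14 reference genes it was -0.35 (adjusted p = 0.00465). In the main fit the group means of Tbp over WT and the 3 younger ages spanned only 0.0416 log2 units. With 9 months included they spanned 0.238. The narrow span depended on the scale. With quantile normalization the differences from WT at 1, 3 and 6 months were 0.015, -0.025 and 0.032. Unscaled they were 0.21, -0.06 and 0.31, the last one called (limma adjusted p = 0.0303). The unscaled step from 3 to 6 months was 0.37 (adjusted p = 0.0199). Relative to the other 14 reference genes the differences from WT were 0.17, 0.09 and 0.20, and none was called.

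Rpl13a encodes a protein of the large ribosomal subunit that also takes part in translational silencing after interferon signalling. Its log2 level was 4.47 and 4.40 at 1 month, 4.59 and 4.57 at 3 months, 4.51 and 4.38 at 6 months, 4.57, 4.56 and 4.59 at 9 months, and 4.41 and 4.47 in WT. The 3-month and 9-month samples lay above both WT samples, and the other 2 ages overlapped WT. None of its differences was called: -0.01 at 1 month, 0.14 at 3 months, 0.00 at 6 months and 0.13 at 9 months (limma adjusted p 0.948, 0.279, 0.987 and 0.182). Their 95% intervals were -0.18 to 0.16 at 1 month, -0.04 to 0.31 at 3 months, -0.17 to 0.18 at 6 months and -0.03 to 0.29 at 9 months. Rpl13a has processed pseudogene copies in the mouse genome, and which of them its probe can read was not tested.

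The steadiness of Rpl13a depended on what it was measured against. Over the 11 samples its SD was 0.0796 on the 75th percentile scale, the smallest of the 6. Of all kept features, nearly all of them single spots, 0.473% had a smaller one. Its SD was also the smallest of the 6 with quantile normalization (0.0574) and the median of each array (0.107). Unscaled it was 0.19, against 0.138 for Tbp and 0.152 for Tfrc. With normexp it was 0.11, against 0.0925 for Gk, and relative to the other 14 reference genes 0.0981, against 0.0941 for Tfrc. Relative to the mean of the other 14 reference genes, however, Rpl13a was above WT at every age, by 0.20, 0.26, 0.20 and 0.23 at 1, 3, 6 and 9 months. That mean, also used for the other members, weights all 14 alike. It holds the reference gene B2m, whose group means spanned 1.24 log2 units, and the share of such genes in the differences was not tested. On that scale limma called Rpl13a at 9 months (adjusted p = 0.0268) and for the mean of the 4 ages (0.22, adjusted p = 0.0247). At 3 months Rpl13a had an adjusted p of 0.0501 there. Limma also called Rpl13a above WT at 9 months unscaled (0.47, adjusted p = 0.00661) and with normexp (0.26, adjusted p = 0.0363). Unscaled, it was called for the mean of the 4 ages (0.28, adjusted p = 0.0456) and in the F test (adjusted p = 0.0229) as well. Of all 15 reference genes, Rpl13a included, 15 lay below WT at 1 month on the 75th percentile scale, 9 at 3 months, 10 at 6 months and 12 at 9 months. The median difference of the 15 was -0.16, -0.02, -0.11 and -0.10 at the 4 ages, and with no scaling 4, 13, 4 and 1 of 15 lay below WT.

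Tfrc encodes transferrin receptor 1, which takes iron-loaded transferrin into cells and is abundant on the endothelium of brain capillaries. Its log2 level was 5.75 and 5.71 at 1 month, 5.84 and 5.78 at 3 months, 5.59 and 5.45 at 6 months, 5.92, 5.76 and 5.72 at 9 months, and 5.87 and 5.91 in WT. Both 6-month samples lay below every other sample, 1 and 3 months lay below both WT samples, and 9 months overlapped WT. At 6 months Tfrc was lower than in WT by 0.37 (log2 difference -0.37, SE 0.09, 95% interval -0.58 to -0.15, limma adjusted p = 0.0262), a fold of 0.776. The differences were -0.16 at 1 month, -0.08 at 3 months and -0.09 at 9 months, and none of these was called. Among ages, 9 months minus 6 months was 0.27 (limma adjusted p = 0.0502) and 6 months minus 3 months -0.29 (adjusted p = 0.0801). Before scaling, Tfrc read 21500 to 24820 intensity units on the 6-month arrays and 23560 and 24430 on the WT arrays, an unscaled difference of -0.06 (limma adjusted p = 0.674). The call at 6 months held in 20 of 28 alternatives. One of these was the 356 V arrays alone (-0.37, limma adjusted p = 0.047), chosen after the scan settings were seen. Relative to the mean of the other 14 reference genes the call was lost (-0.20, limma adjusted p = 0.0698). The call was also lost with normexp (-0.21, 0.14), the median of each array (-0.49, 0.052) and only the 2 groups compared (-0.37, 0.166). It was lost without either WT sample (adjusted p = 0.0773 and 0.103) and without the female 6-month sample (-0.30, adjusted p = 0.107), whose arrays had 81.3% and 82.4% of spots well above background.

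Gk encodes glycerol kinase, an X-linked enzyme that makes glycerol 3-phosphate from glycerol. Its log2 level was -0.26 and -0.24 at 1 month, -0.48 and -0.43 at 3 months, -0.21 and -0.12 at 6 months, -0.29, -0.19 and -0.28 at 9 months, and -0.15 and -0.16 in WT. Both 3-month samples lay below every other sample, 1 and 9 months lay below both WT samples, and 6 months overlapped WT. At 3 months Gk was lower than in WT by 0.30 (log2 difference -0.30, SE 0.07, 95% interval -0.47 to -0.13, limma adjusted p = 0.0387), a fold of 0.813. The 6-month level was higher than the 3-month level by 0.29 (SE 0.07, limma adjusted p = 0.036). Its signal of 275 to 302 intensity units at 3 months, against 364 and 363 in WT, was lower before scaling too (-0.34, limma adjusted p = 0.253). Relative to the other 14 reference genes the difference at 3 months was -0.21 (adjusted p = 0.23). Its sign was kept in all 28 alternatives and its call was lost in 17 of them, among them the fits without either WT or either 3-month sample (limma adjusted p 0.0879 to 0.174).

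Ldhal6b encodes a lactate dehydrogenase A-like protein that is known in human as a gene expressed in testis. Its log2 level was -3.199 and -3.073 at 1 month, -2.981 and -2.934 at 3 months, -2.905 and -2.813 at 6 months, -3.09, -3.098 and -3.109 at 9 months, and -2.946 and -2.998 in WT. The 6-month samples lay above every other sample, those of 1 and 9 months below both WT samples, and 3 months overlapped WT. None of its differences from WT was called (-0.16, 0.02, 0.11 and -0.13 at 1, 3, 6 and 9 months, limma adjusted p 0.204 to 0.919). It was lower at 9 months than at 6 months by 0.24 (log2 difference -0.24, SE 0.07, limma adjusted p = 0.0403), a contrast in which scan setting and group cannot be told apart. Ldhal6b was also the dimmest of the 6. With a normexp background model on the median spot signals, its 6-month difference turned to -0.38 and its 9-month difference became -0.42 (limma adjusted p = 0.0321). The difference between 9 and 6 months was then -0.04 (adjusted p = 0.906). With quantile normalization limma called Ldhal6b below WT at 9 months (-0.24, adjusted p = 0.0264).

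A p-value above the threshold does not show that a gene was stable, so the 95% intervals were set against a margin of 0.5 log2 units. For 4 of the 6 genes all 4 intervals against WT stayed within that margin, which held for 11.7% of all features. The end farthest from 0 was 0.31 for Rpl13a, 0.341 for Ldhal6b, 0.433 for Tbp and 0.469 for Gk. For the dim Ldhal6b the bound depended on the background model, as its 1-month difference was -0.47 with normexp. Hprt at 0.557 and Tfrc at 0.58 passed the margin, Hprt through 1 month and Tfrc through 6 months. For 0 of the 6 were all intervals within 0.3, and for all 6 they were within 1. At this number of samples none of the 6 could be bounded to a change under 0.3 log2 units at every age.

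**Figure D2:**
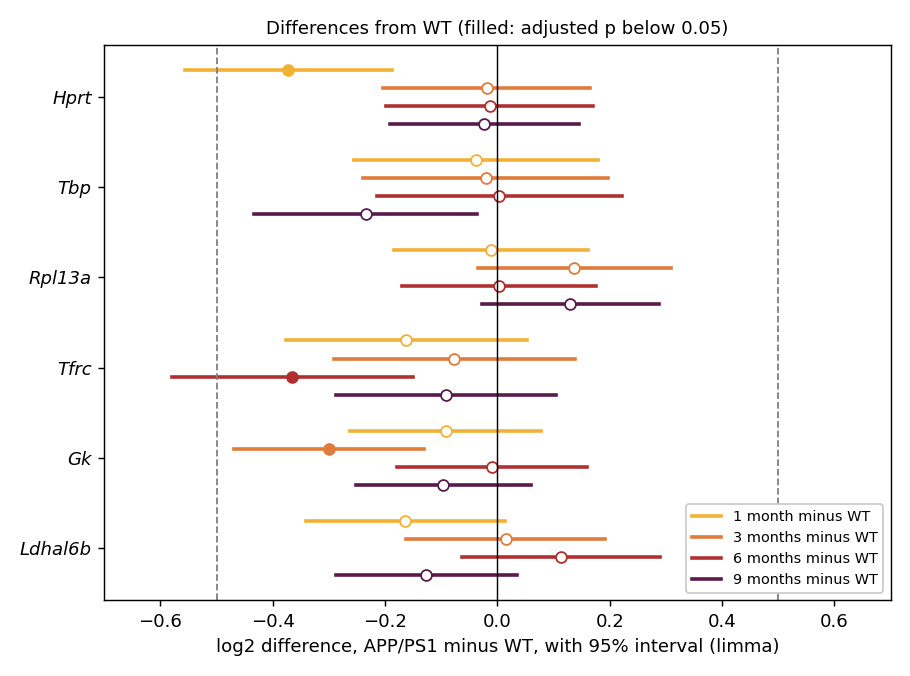
Log2 difference of each gene from WT at 1, 3, 6 and 9 months (points) with limma's 95% intervals (bars). Filled points are calls, and the dashed lines mark the margin of 0.5 to either side. Only the bars of Hprt at 1 month and of Tfrc at 6 months cross a dashed line, and the intervals of Rpl13a stay within 0.31 of zero.

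Across the 5 groups the F test of limma called 2 of the 6 genes, Hprt and Gk, where 48.3% of all features were called. The group means of Hprt spanned 0.373 log2 units (limma adjusted p = 0.0189) and those of Gk 0.30 (adjusted p = 0.0463). The call of Hprt was lost in 7 of 27 alternatives and that of Gk in 19 of 27. Those of Tfrc spanned 0.365 (adjusted p = 0.0654), Ldhal6b 0.278 (0.0614), Tbp 0.238 (0.133) and Rpl13a 0.148 (0.209), and none of these 4 passed. Relative to the other 14 reference genes, the 2 genes past the F test were Tbp (limma adjusted p = 0.00848) and Hprt (0.0204). Gk did not pass on that scale (0.0738). Over all kept features the median span was 0.645, and that of Rpl13a was wider than in 0.959% of features, against 18.0% for Hprt. Nearly all of these features are single spots and hold more spot error than means over copies. Between consecutive ages 1 gene of the 6 was called in each step. It was Hprt from 1 to 3 months, against 16.1% of all features, Gk from 3 to 6 months, against 14.5%, and Ldhal6b from 6 to 9 months, against 24.8%.

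No difference between the labelled sexes was called. Between samples labelled female and male within groups limma called 0 of the 6 genes and 0 of 45901 features (0%), with 0 of the 6 and 3713 features at an unadjusted p below 0.05. The difference was -0.06 for X-linked Hprt (95% interval -0.17 to 0.06) and 0.04 for X-linked Gk (-0.07 to 0.15). It was -0.08 for Tfrc (-0.20 to 0.04), -0.07 for Tbp (-0.20 to 0.06), -0.03 for Rpl13a (-0.14 to 0.08) and 0.04 for Ldhal6b (-0.08 to 0.15). Because the design text names males alone, the sexes are given as labelled.

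Ratios between genes of one array are not changed by dividing the array by a single factor, as the 75th percentile does, and they were used as a description with no test. Quantile normalization and normexp do change them. For each gene the SD of its log2 ratio to each of the other 14 reference genes over the 11 samples was averaged into the pairwise variation M, the measure of geNorm, in which a lower value is steadier. M was 0.204 for Rpl13a, 0.206 for Tfrc, 0.209 for Tbp, 0.218 for Hprt, 0.22 for Ldhal6b and 0.228 for Gk, which stood at ranks 2, 3, 4, 6, 7 and 9 of 15. Ppia had the lowest M (0.185) and B2m the highest (0.524), and the median was 0.221. The 6 genes lay close together, between 0.204 and 0.228, and changed places when samples were left out. Leaving out each sample in turn gave ranks of 2 to 4 for Rpl13a, 2 to 5 for Tfrc, 3 to 6 for Tbp, 3 to 9 for Hprt, 2 to 9 for Ldhal6b and 6 to 11 for Gk. Without the 9-month samples Tbp stood at rank 2, Rpl13a at 4, Tfrc at 5, Hprt at 8, Ldhal6b at 9 and Gk at 11. With normexp Ldhal6b stood at rank 13 (M 0.284) and Gk at 6.

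**Figure D3:**
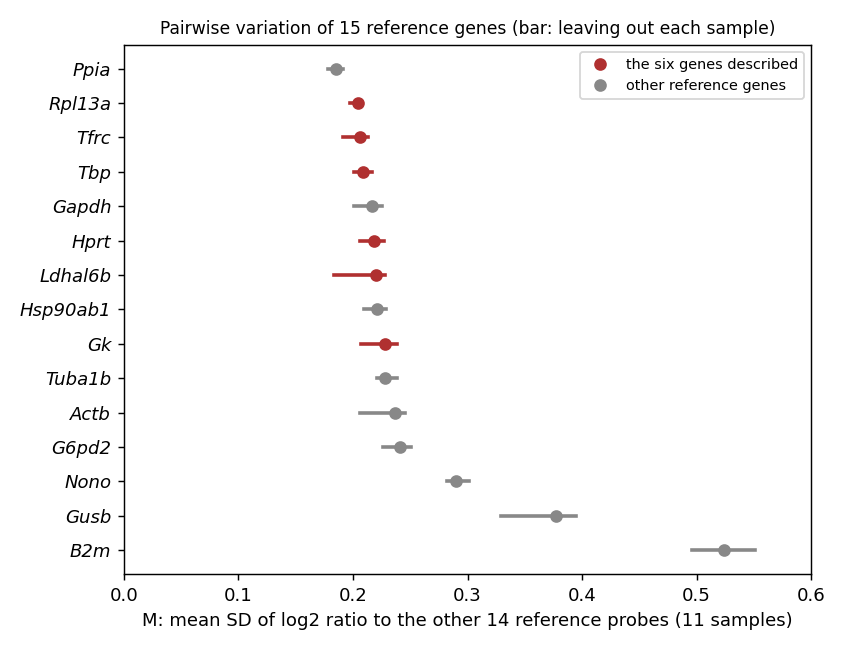
Pairwise variation M of the 15 reference genes over 11 samples (points), in log2 units, with the range when each sample is left out in turn (bars). The 6 genes described are red and the other 9 grey, ordered from the lowest M at the top. The red points lie between 0.204 and 0.228, close together, while B2m stands at 0.524.

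Among the 15 pairs of the 6 genes the SD of the log2 ratio was 0.13 for Tbp and Ldhal6b, 0.131 for Rpl13a and Tfrc, 0.135 for Hprt and Ldhal6b and 0.137 for Hprt and Rpl13a. It was widest for Tfrc with Gk (0.206) and Tfrc with Ldhal6b (0.213). Over the 5 groups the mean log2 ratio of Tbp and Ldhal6b spanned 0.236, the narrowest of the 15 pairs, and that of Tfrc and Gk 0.579, the widest. The pair of Rpl13a and Tfrc shifted by -0.37 at 6 months relative to WT, Tfrc over Rpl13a. Relative to Rpl13a, Hprt shifted by -0.36 at 1 month, Gk by -0.44 at 3 months and Tbp by -0.37 at 9 months. The gene with the steadiest ratio to each member, among 83 other features with a gene name, was Ppia for Hprt (SD 0.101) and for Rpl13a (0.0633), Hsp90ab1 for Tbp (0.0626), Actb for Tfrc (0.10), G6pd2 for Gk (0.088) and Zf12 for Ldhal6b (0.104). In 5 of these 6 cases it was another reference gene with 20 copies, whose means hold less error than those of probes with a single spot.

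What scaling to one of these genes would do to the other features was computed as a description, with each gene in turn in place of the 75th percentile. With arrays scaled by Hprt, the median log2 difference of all features at 1 month was 0.38, against 0.01 with the 75th percentile. Of all features 41.0% were then called, 18011 of them higher and 801 lower, so that 95.7% were higher, against 51.5%. With Gk as the scale, 28.1% of features were called at 3 months, 95.8% of them higher, against 62.8%. With Tfrc, 46.0% were called at 6 months and 93.2% were higher, against 59.8%. With Tbp, 37.7% were called at 9 months and 84.9% were higher, against 55.8%. These shifts follow by construction from the lower level of the scaling gene in that group. Rpl13a as the scale gave a median of 0.02 at 1 month, the smallest of the 6 there, and 0.07 at 6 months. It gave -0.12 at 3 months and -0.10 at 9 months, where 30.3% and 36.5% of calls were higher.

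**Figure D4:**
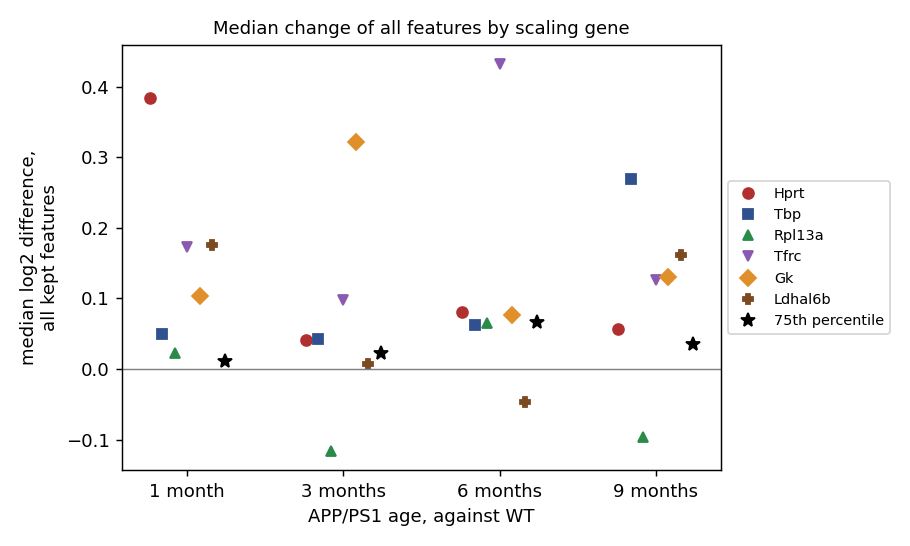
Median log2 difference from WT over all kept features at each age, when arrays are scaled by one of the 6 genes or by the 75th percentile (stars). Points above zero mean that most features read higher in APP/PS1 than in WT under that scale. Hprt gives 0.38 at 1 month, Gk 0.32 at 3 months, Tfrc 0.43 at 6 months and Tbp 0.27 at 9 months, while the stars stay between 0.01 and 0.07.

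Genes that act with the 6 could not be set beside them. Lists of 5 genes of purine salvage, 11 of TFIID, 13 of the large ribosomal subunit, 10 of iron uptake and storage, 8 of glycerol metabolism and 5 lactate dehydrogenases were looked up. In each list only the member itself had a probe with a gene name, because 116 of the 59709 probes had one. Whether other genes of these pathways moved with the 6 was not analysed here.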

How the data were processed

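The labels' protocols describe Cy3-labelled brain RNA on one-colour Agilent arrays. The deposited spot intensity, the processed signal of Agilent Feature Extraction 10.7.1.1 per the submitters' processing notes, is background-subtracted and detrended within an array, per the file headers, and not scaled between arrays. Other deposited values are flags of 0 or 1 per spot, per the file headers. A deposited value table equalled the local background intensity in all 62513 rows of 14 columns (within 0.001) and was not used. The third WT sample had no scanner file used here. The members and lists were chosen with earlier results of these data known.

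The log2 signal minus the array's 75th percentile was averaged over copies without outlier spots. Features well above background on every array of at least 1 group were kept (45901), and 134 probes printed once were dropped for a non-uniform spot. Near-identical arrays of a group (correlation above 0.5) were averaged. Differences were tested with limma 3.58.1 in R 4.3.3 with Benjamini-Hochberg adjustment over all kept features, after the code was tested on simulated data. The genes named are the 6 members, both ends of the M ranking and, for each member, the named feature with the steadiest ratio. Replicates were numbered in accession order and pair no samples. The number of arrays limits the precision. The normexp alternative (offset 50) was fitted to the median spot and background signals, in place of the planned mean spot signals. Names came from RefSeq identifiers and a table of GRCm38.p6, with 116 probes matched. The array's build is not given in the sources used here, so no coordinates are printed, and probe sequences were not analysed here.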

Additional observations from a re-analysis of the deposited data

Results flagged for a closer look

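Hprt, Gk and Ldhal6b each differed between neighbouring APP/PS1 ages, so that their differences from the same WT samples were unlike at these ages. By limma, the difference of Hprt from WT was higher at 3 months than at 1 month by 0.353 log2 units (adjusted p = 0.0232), which was 0.14 with quantile normalization (adjusted p = 0.189) and 0.07 unscaled (adjusted p = 0.673). That of Gk was higher at 6 months than at 3 months by 0.29 (adjusted p = 0.036). That of Ldhal6b was lower at 9 months than at 6 months, with a log2 difference of -0.24 (adjusted p = 0.0403), and arrays of these 2 ages were scanned at different settings. No group had the 4 samples needed to look for a single sample far from the others.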

How the results depend on the processing

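Over 25 or 28 alternatives each, the 6 called differences kept their direction in all, and their calls were lost in 13 of 28 (Hprt, 1 month minus WT), 17 of 28 (Gk, 3 months minus WT), 8 of 28 (Tfrc, 6 months minus WT), 11 of 28 (Hprt, 3 minus 1 month), 16 of 28 (Gk, 6 minus 3 months) and 17 of 25 (Ldhal6b, 9 minus 6 months). Over their alternatives the log2 differences ran from -0.44 to -0.13, from -0.37 to -0.21, from -0.49 to -0.06, from 0.07 to 0.37, from 0.23 to 0.63 and from -0.36 to -0.04, in the same order. The differences of Rpl13a from WT had values of -0.08 to 0.24 at 1 month, 0.06 to 0.26 at 3 months, -0.12 to 0.31 at 6 months and 0.04 to 0.47 at 9 months. With no scaling of the arrays, Hprt at 9 months minus WT reversed to 0.317 (limma adjusted p = 0.0318). The median log2 difference of all features from WT was 0.26, -0.02, 0.37 and 0.38 at 1, 3, 6 and 9 months on unscaled arrays and -0.22, -0.14, -0.22 and -0.23 with normexp, against 0.01, 0.02, 0.07 and 0.04 with the 75th percentile. The cause of the changes below was not tested, except that fits with fewer samples have fewer degrees of freedom.

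The number of the 6 genes called by limma is given here with the number called of all 45901 features in brackets. In the main fit it was 1 at 1 month (4417), 1 at 3 months (5250), 1 at 6 months (10553) and 0 at 9 months (15192). It was 0 for the averaged ages against WT (7841), 1 in each step between ages (7381, 6672 and 11385) and 2 in the F test (22191). The totals in brackets moved with the setting as well. With quantile normalization it was 0 at 1 month (3959) and 3 at 9 months (15385), where Hprt, Tbp and Ldhal6b were lower than in WT. It was 0 for 3 minus 1 month (7245) and 4 in the F test (21882) with that method. For 9 minus 6 months it stayed at 1 (11617), but the gene was Tbp in place of Ldhal6b. With no scaling it was 0 at 1 month (5844), 0 at 3 months (2775), 2 at 9 months (18520) and 1 for the mean of the ages (10604). At 6 months it stayed at 1 (15425), but the gene was Tbp, above WT, in place of Tfrc, below WT. Unscaled, the 3 steps had 0, 3 and 0 (8041, 12764 and 7300) and the F test 5 (24440). With the median of each array it was 0 at 1, 3 and 6 months (2257, 3056 and 7725). It was also 0 in every step (3724, 4063 and 7736) and in the F test (17485). Relative to the other 14 reference genes it was 0 at 1, 3 and 6 months, 1 at 9 months, 1 for the mean of the ages and 2 for 9 minus 6 months. The F test again called 2 there, but Hprt and Tbp in place of Hprt and Gk. Each member had its own scale in that setting, and calls over all features were not counted. With normexp it was 0 at 1, 3 and 6 months (4092, 2446 and 11901), 2 at 9 months (17153) and 1 for the mean of the ages (13508). It was 0 in every step (3489, 3577 and 6896) and in the F test (17485) with normexp. With the 14 arrays as separate samples, where near-identical arrays count as independent, it was 1 at 9 months (18796) and 1 for the mean of the ages (12752). The steps then had 4, 3 and 4 (15783, 14931 and 17620) and the F test 5 (31112). With no filter, where 59575 features were tested, it was 0 at 1 and 3 months (2865 and 3620). It was 0 for 6 minus 3 (5493) and 9 minus 6 months (9529) and 1 in the F test (19676). With a filter of 3 or more arrays, where 48298 were tested, it was 1 in the F test (21627). With only the 2 groups compared it was 0 at 1, 3 and 6 months (334, 423 and 2303) and in every step (347, 381 and 7234). Few features of any kind were called in most of these fits, so the zeros are not particular to the 6 genes. Without the 9-month arrays it was 0 at 1 and 3 months (2232 and 2950) and 0 in the 2 steps left (4176 and 4340). The F test of the remaining groups also called 0 (9788). On the 356 V arrays alone, chosen after the scan settings were seen, these numbers were the same (2111, 2812, 3939, 4126 and 9528). With separate arrays and a block for scan setting it was 2 for 3 minus 1 (14157), 2 for 6 minus 3 months (12991) and 4 in the F test (22980). Labelled sex as a covariate gave 2 for 9 minus 6 months (11212). A trend and robust prior gave 1 at 9 months (16036), 2 for 6 minus 3 (7557), 2 for 9 minus 6 months (12450) and 3 in the F test (23456). The second array of each pair alone gave 1 in the F test (22008).

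Leaving out 1 sample at a time gave 0 to 1 called at 1, 3, 6 and 9 months and in each step, and 0 to 2 in the F test. The number of genes with all intervals within 0.5 was 4, and 2 to 4 with 1 sample left out (2 without WT replicate 1). It was 6 with quantile normalization, 5 with normexp, 5 relative to the other 14 reference genes, 1 with no scaling, 2 with the median of each array and 0 with a margin of 0.3. No paired analysis was possible because every title carries the same replicate number.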
